A study of Mus musculus with 34 samples.

Results

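The Gprc5 receptors are 4 mouse genes, Gprc5a, Gprc5b, Gprc5c and Gprc5d. They were taken by gene symbol from a knockout count table of 24223 genes and from wild-type gene files of 55573 genes, and all 4 were found in both. The samples were brushings of tracheal epithelium, 1 library per mouse. Knockout mice (Gprc5a-/-) were brushed before any exposure (baseline, n = 6) or after NNK, injected intraperitoneally for 8 weeks with 3 doses of 50 mg/kg each week. The exposed groups were t0, taken when the injections ended (n = 6), and t2 (n = 5), t4 (n = 6) and t6 (n = 5), taken 2, 4 and 6 months after that, t6 being when lung adenocarcinoma develops. NNK is a tobacco-specific nitrosamine that causes lung tumours in mice. Unexposed wild-type mice were sampled at baseline (n = 6). All 5 knockout groups, the baseline included, carry the Gprc5a-/- genotype. The labels give an age of 6 to 8 weeks for every group. Exposed mice were brushed 8 weeks or more after injections began, so this is not taken as their age at brushing. Age-matched unexposed controls of the exposed groups were not analysed here, so the effects of NNK, of time since NNK and of age cannot be told apart. Which part of Gprc5a was deleted is not given in the sources used here.

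The family belongs to the class C G protein-coupled receptors, but its members have a short extracellular end and no known ligand, so they are counted as orphan receptors. The founding member, Gprc5a, was found as a gene induced by retinoic acid. It is made mainly in lung epithelium, and mice that lack it develop lung tumours, for which reason it is treated as a tumour suppressor there. Gprc5b has been tied to lipid rafts, insulin signalling and inflammation in fat tissue, Gprc5c is found in kidney tubules and in some blood stem cells, and Gprc5d is known from hair follicles and, in human myeloma, from plasma cells.

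The 4 genes lie at 3 places of the mm10 genome. Gprc5a (chromosome 6, 135065662 to 135084708, plus strand) and Gprc5d (chromosome 6, 135105991 to 135118283, minus strand) are next to each other, with 21282 bases between them. Gprc5b (chromosome 7, 118972040 to 118995211, minus strand) overlaps the 3′ end of Iqck, and Gprc5c (chromosome 11, 114851532 to 114872617, plus strand) stands clear of its neighbours. The longest run of bases that the annotated transcripts of any 2 members share is 12 to 17, which is short next to a sequencing read. Promoter sequences (250 bases before to 50 bases after the annotated start, RefSeq, GRCm38.p6) were at hand for the minus-strand members Gprc5b and Gprc5d, and not for Gprc5a and Gprc5c. These 2 sequences differ in make-up, and any bearing of that on the levels of the genes was not tested. Capitals mark the only match to any of the motifs searched, on both strands: AGGTCA (a nuclear receptor half-site), CACGTG and TATAAA, the last read as TTTATA on the other strand.

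Gprc5b promoter, chr7:118995162-118995461, minus strand: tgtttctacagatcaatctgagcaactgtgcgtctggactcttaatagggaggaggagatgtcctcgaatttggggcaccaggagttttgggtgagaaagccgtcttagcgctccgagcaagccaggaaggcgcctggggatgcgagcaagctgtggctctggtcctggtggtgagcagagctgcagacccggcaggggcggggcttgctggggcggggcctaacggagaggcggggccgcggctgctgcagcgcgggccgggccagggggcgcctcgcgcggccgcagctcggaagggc

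Gprc5d promoter, chr6:135118234-135118533, minus strand: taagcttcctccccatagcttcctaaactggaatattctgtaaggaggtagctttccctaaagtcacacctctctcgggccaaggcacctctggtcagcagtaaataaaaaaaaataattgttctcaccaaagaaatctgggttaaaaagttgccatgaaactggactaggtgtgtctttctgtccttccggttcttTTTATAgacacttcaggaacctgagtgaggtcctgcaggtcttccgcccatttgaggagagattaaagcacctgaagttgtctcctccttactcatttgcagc

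The Gprc5b promoter was 66.3% G and C with 23 CG dinucleotides, above the upper quartile of 61.7% over the 32817 promoters in the table. The Gprc5d promoter was 44.3% G and C with 3 CG dinucleotides, below the lower quartile of 45.7%. The TATAAA match in Gprc5d is 1 that 13.6% of all promoters hold. AGGTCA was in 16.3% of promoters and CACGTG in 7.15%, and neither was in these 2 windows.

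Knockout libraries held 15.6 to 37.6 M counts and wild-type libraries 10.8 to 24.0 M. The library t2 339 had 14475 genes above 0, against 16892 to 19082 in the other 27 knockout libraries, and 27 genes were at 0 there that reached at least 5 CPM (counts scaled to a common library size) in each of the others, and no other library had such a gene. Haemoglobin transcripts took 22.8% of the counts of t0 357, 25.5% of t4 371 and 15.3% of t6 349, and the ribosomal precursor Rn45s took 14.8% of t6 365. Markers of the labelled airway epithelium were present throughout: none of the 7 ciliated, 6 club or 6 basal cell markers was at 0 in any knockout library. At t0 all 7 ciliated and all 6 club cell markers were called lower than at baseline and 5 of 6 basal and 5 of 6 squamous markers higher, where 22.3% and 23.3% of the 14847 genes tested were called lower and higher. In bulk RNA of this kind, fewer cells of a type and less RNA per cell cannot be told apart.

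Gprc5a was the most abundant member in wild-type airway and low in the knockout. The 6 wild-type libraries ranged from 59.97 to 214.43 TPM (a level per transcript length, scaled within a library), with a median of 105 and a mean of 119.7 ± 54.8 (SD, n = 6). They held 2115 to 8186 estimated counts of the gene, and none fell near the knockout range. Knockout baseline libraries held 17 to 41 counts of it, those of t0 6 to 23, those of t2 11 to 238, those of t4 6 to 45 and those of t6 4 to 49. Among 22810 symbols in both kinds of table, ranked per transcript length within a library, Gprc5a stood at percentile 97.4 ± 0.75 in wild type and 43.2 ± 1.76 in knockout baseline (SD, n = 6 each). Both kinds of table were processed separately, so no test was run between genotypes.

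In CPM after TMM scaling (trimmed mean of M-values, which evens out library composition), residual Gprc5a at baseline had a lowest value of 0.825, a median of 0.972 and a highest of 1.51. At t0 the lowest was 0.248, the median 0.485 and the highest 1.06. The t0 values thus lay mostly under the baseline ones, with overlap, and the difference in log2 was -1.01 ± 0.62 (SE), which did not pass the threshold (adjusted p = 0.19, edgeR quasi-likelihood). The t2 libraries had 1.22 in 334, 7.71 in 339, 1.24 in 347, 1.04 in 358 and 0.487 in 360. The high value belongs to the library with 27 genes at 0, 334, 347 and 358 lay within the baseline range, and 360 lay under it. At t4 the lowest value was 0.288, the median 0.873 and the highest 3.11, in library 336, which had the lowest total of any knockout library, 15.6 M. At t6 the values were 0.760, 1.35, 1.51, 0.548 and 0.115, from animals 341, 349, 365, 366 and 368. Read against baseline, none of t2 (1.09 ± 0.63), t4 (0.10 ± 0.61) or t6 (-0.36 ± 0.64) passed, with adjusted p of 0.23, 0.93 and 0.80. The one call was t2 above t0 by 2.099 ± 0.65 (adjusted p = 0.015, where 29.9% of all genes were called). Without t2 339 it was 0.87 with an adjusted p of 0.25, and 3 limma fits, which gave 0.80, 1.40 and 0.92, did not call it either. The F test over the 5 groups, which called 56.8% of all genes, did not call Gprc5a (adjusted p = 0.063).

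**Figure D1:**
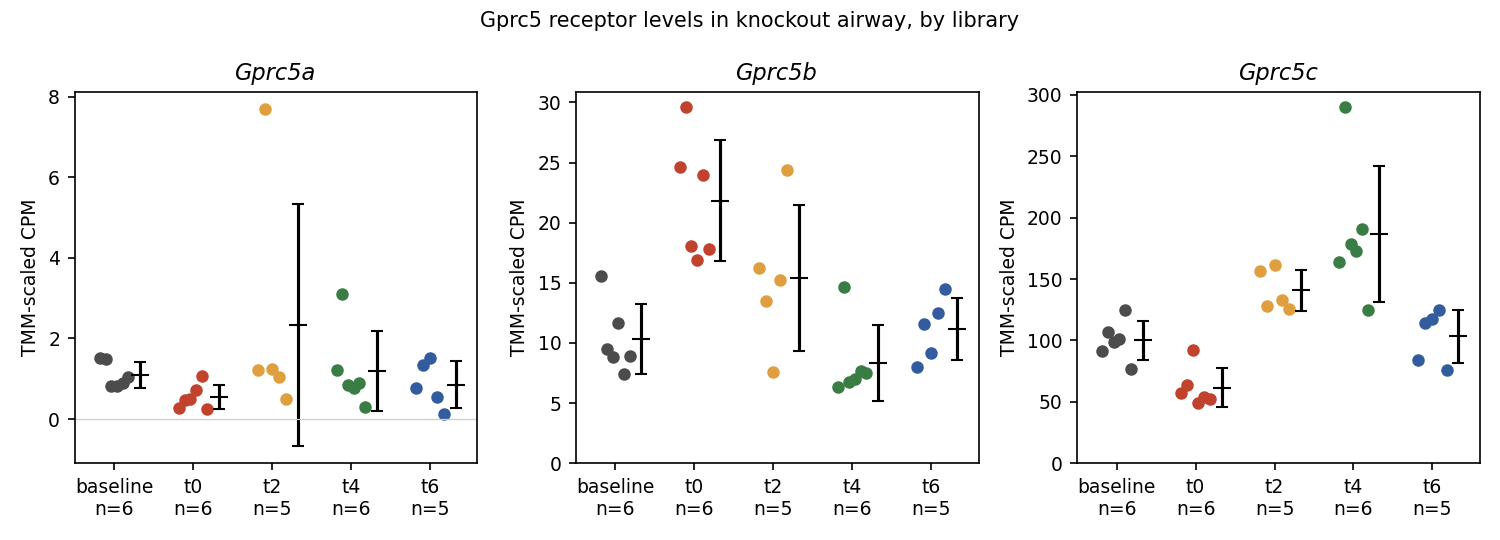
TMM-scaled CPM of Gprc5a, Gprc5b and Gprc5c in the 28 knockout libraries, by group, with 1 point per mouse and the mean ± SD beside each group (vertical axes differ between genes). Gprc5a is at most 3.11 CPM outside 1 t2 library at 7.71, Gprc5b is highest at t0, and Gprc5c is lowest at t0 and highest at t4.

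Per transcript length, the order of the family in wild type was Gprc5a, Gprc5c, Gprc5b and Gprc5d in each of the 6 libraries, and it was the same in FPKM. Gprc5c followed with 28.6 ± 10.7 TPM (13.37 to 45.64), Gprc5b with 4.82 ± 2.34 (1.65 to 8.05), and Gprc5d with 0.052 ± 0.068 (0 to 0.16; SD, n = 6 each). None of these ranges overlapped the next. In shares of the summed family level, Gprc5a made up 76.8 ± 8.84%, Gprc5c 19.9 ± 8.02% and Gprc5b 3.20 ± 1.37%. The library wild-type 295, with the highest Gprc5c value, had the lowest total and the fewest genes above 0 (17055 against 23279 to 26250), and a Gprc5c length of 1747 bases in its file against 3104 to 3541 in the others, which raises the TPM a given count yields.

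In the knockout baseline, Gprc5c stood first. Per length it made up 89.6 ± 3.2% of the summed family level, Gprc5b 8.83 ± 2.77% and Gprc5a 1.49 ± 0.47% (SD, n = 6). The percentiles of Gprc5c were 87.2 ± 2.68 in wild type and 88.9 ± 1.91 in knockout baseline, and those of Gprc5b 60.9 ± 5.41 and 56.0 ± 2.43, so that the ranges of both genes overlapped between genotypes while those of Gprc5a did not. After NNK the share of Gprc5b was 25.2 ± 5.45% at t0 (15.4 to 30.2%), above the highest baseline share of 13.4%. The t2 share was 9.23 ± 3.99%, the t4 share 3.97 ± 0.74% and the t6 share 9.38 ± 3.25%, and Gprc5c made up nearly all of the rest. Per kilobase, in CPM by library totals without TMM scaling, the 4 receptors summed to 34.2 ± 4.58 in baseline and 28.7 ± 7.31 in t0 libraries. The sums were 52.6 ± 5.81 and 62.2 ± 17.3 in those of t2 and t4, and 36.4 ± 3.28 in those of t6. These sums follow Gprc5c, the member that holds most of them. On this scale a high haemoglobin share lowers a library. In Gprc5c, t4 371 was lowest of t4 at 42.8 per kilobase, but had 190.5 CPM after TMM scaling, above the t4 median of 175.7.

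**Figure D2:**
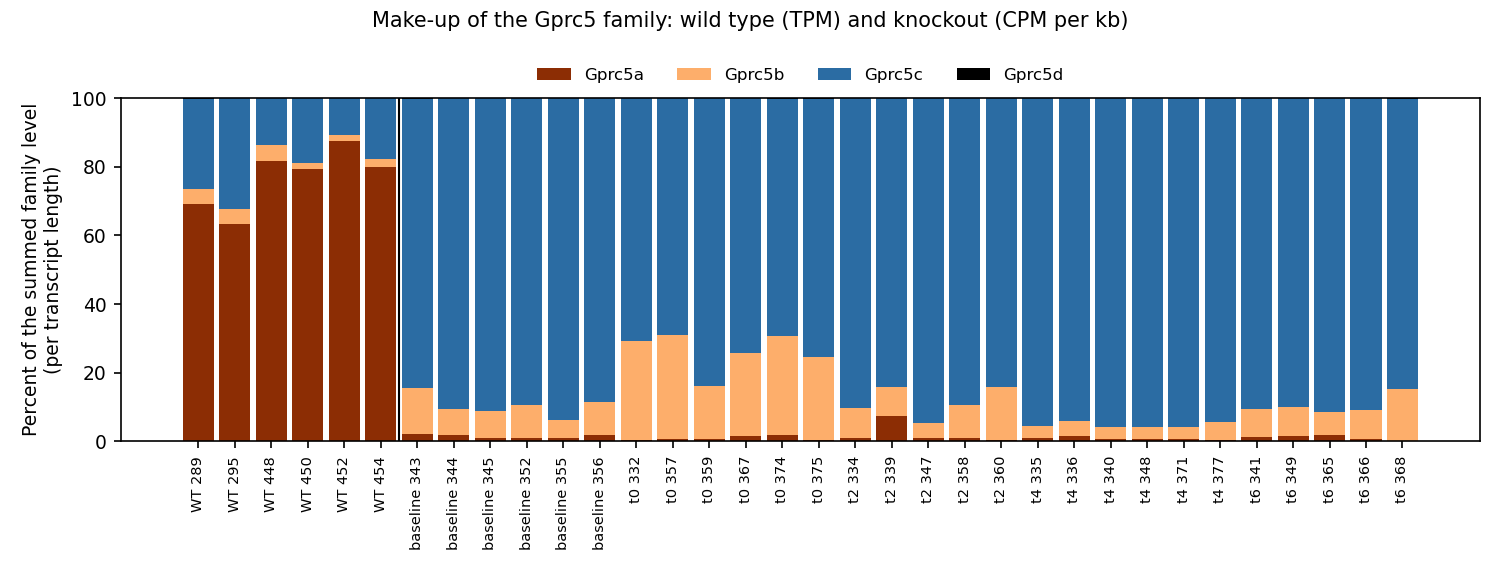
Share of each receptor in the summed family level per transcript length, in percent, with 1 bar per library (wild type from TPM left of the line, knockout from CPM per kilobase right of it). Gprc5a fills 63.4 to 87.4% of the wild-type bars, and Gprc5c fills most of every knockout bar, with the widest Gprc5b segments at t0.

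Gprc5c fell at the end of NNK exposure, was high at t4, and at t6 lay among the baseline values. At baseline its lowest value was 76.4 CPM, its median 100.1 and its highest 124.7, and at t0 these were 49.0, 55.6 and 92.3. Of the t0 libraries, 5 lay at 49.0 to 63.4, under every baseline library, and only t0 359 lay among them. The fall was -0.70 ± 0.17 in log2, or 1.63-fold (adjusted p = 0.0016), in a comparison that called 45.5% of all genes, so a call by itself does not set Gprc5c apart there. Without t0 359 the value was -0.86, and over all 12 libraries left out in turn it stayed between -0.86 and -0.63 with adjusted p up to 0.0056.

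At t2 the Gprc5c values were 156.3, 128.3, 161.1, 132.9 and 125.8 CPM in animals 334, 339, 347, 358 and 360. All 5 were above the highest baseline value of 124.7, and the difference of 0.50 ± 0.18 had an adjusted p of 0.051, just short of the threshold, where 19.9% of genes were called. At t4 the lowest value was 125.1, the median 175.7 and the highest 290.2, again in library 336. All 6 t4 libraries were above all baseline libraries, the lowest barely so, and the difference was 0.90 ± 0.17, or 1.87-fold (adjusted p = 7e-04, where 19.6% of genes were called). Without t4 336 it was 0.73 with an adjusted p of 0.0026. At t6 the values were 83.9, 114.6, 117.4, 124.8 and 76.1 CPM in animals 341, 349, 365, 366 and 368. They spread across the baseline range, and the difference from baseline was 0.05 ± 0.18 with a 95% interval of -0.32 to 0.42 (adjusted p = 0.91), in a comparison that called 8.83% of genes.

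Against t0, Gprc5c was higher at each later time: by 1.20 ± 0.18 at t2 (adjusted p = 1.2e-05), 1.61 ± 0.18 at t4 (1.2e-07) and 0.75 ± 0.18 at t6 (0.0016), where 29.9%, 33.4% and 38.7% of genes were called. The linear trend over months after NNK, which called 32.8% of 14693 genes, was 0.17 ± 0.07 in log2 per month (adjusted p = 0.043). It rests on the t0 libraries: without those 6 the slope was -0.11 (adjusted p = 0.40), and leaving out any 1 of 11 libraries, all 6 t0 ones among them, ended the call. A comparison of t6 with t4, added after the t4 values had been seen, gave -0.85 ± 0.18 (adjusted p = 0.038), in a comparison that called only 0.869% of genes. That call was lost when any of t4 335, 336 or 340, or of t6 341, 365, 366 or 368, was left out, with adjusted p up to 0.11 and values of -0.95 to -0.69.

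The ciliated cell markers moved alongside Gprc5c. The 7 markers summed to 3348 to 4230 CPM in baseline libraries and 1136 to 2752 in t0 libraries. Their sums were 3520 to 5368 in the t2, 3945 to 4992 in the t4 and 2852 to 3988 in the t6 libraries. The library t0 359, highest of its group in Gprc5c, was also highest in that sum, at 2752 against 1136 to 1580 in the other 5. The match was partial: against baseline, all 7 markers fell at t0, while at t4 1 of 7 rose and the median change was 0.07, beside 0.90 for Gprc5c. The low t0 level was not particular to the ciliated list. The 6 club cell markers summed to 55960 to 81490 CPM at baseline and 14620 to 23790 at t0. The 6 alveolar type 2 ones summed to 769.1 to 1599 and 158.5 to 306.9, with 4 of 6 called lower at t0. Against t0, 4 of 6 club cell and 3 to 4 of 6 alveolar type 2 markers were called higher at each later time. Of all genes, 29.9% to 38.7% were called there. The goblet cell list shared the low t0 level. Its sum had a median of 4233 CPM at baseline, 1200 at t0 and 2719 to 2992 later. At t0 4 of 5 goblet cell markers were called lower, where 22.3% of all genes were. The ionocyte sum had a median of 125 at baseline, 38.3 at t0 and 109 to 116 later, but 1 gene, Atp6v1c2, held most of it at baseline. The mean of Atp6v1c2 went from 119.1 CPM at baseline to 17.28 at t0. Those of Foxi1, Ascl3 and Cftr did not fall (3.525, 6.45 and 3.373 at baseline, 6.485, 6.584 and 7.336 at t0). Of the 4 ionocyte markers, 1 was called lower and 1 higher at t0, where 22.3% and 23.3% of all genes were. Their median change was 0.45. At t4, where 10% of all genes were called higher, 5 of 5 neuroendocrine markers (sums of 52.8 to 91.8 CPM, 19.04 to 28.3 at baseline), 4 of 5 smooth muscle markers (28.01 to 194 against 18.8 to 52.2) and 6 of 6 skeletal muscle markers (16.01 to 75.01 against 1.65 to 9.76) rose. So did 4 of 6 squamous markers (264 to 796 against 81.7 to 302, median change 2.13) and 3 of 4 B and plasma cell markers tested (median change 3.13). In the other direction, 5 of 6 club cell and 4 of 6 fibroblast markers fell at t4, where 9.56% of all genes were called lower. The part of these cells in the Gprc5c values was not tested.

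**Figure D3:**
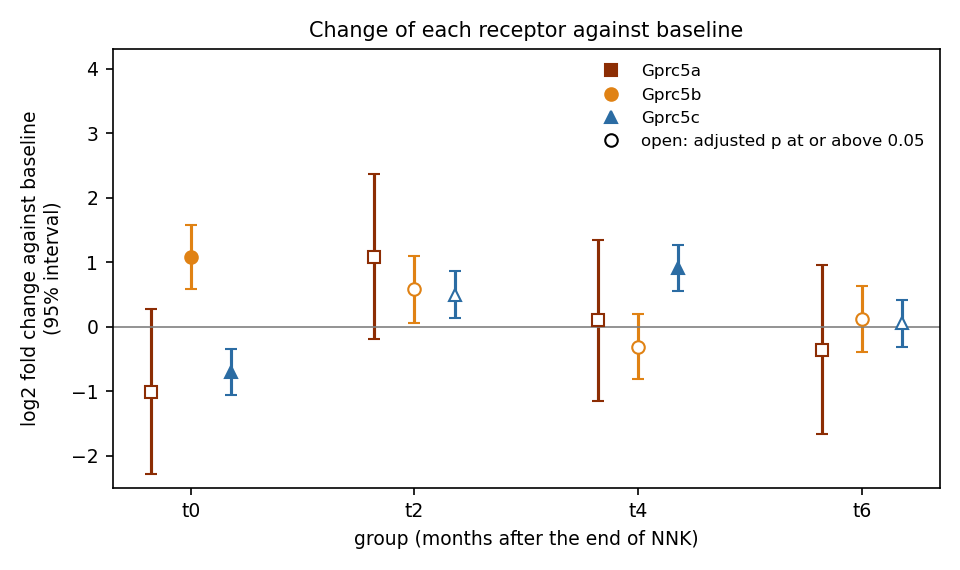
Log2 fold change of Gprc5a, Gprc5b and Gprc5c against knockout baseline at t0, t2, t4 and t6, with 95% intervals and filled symbols where the adjusted p is under 0.05. At t0 Gprc5b lies above zero and Gprc5c below it, at t4 Gprc5c alone is filled, and the Gprc5a intervals are the widest.

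Gprc5b rose at the end of exposure, opposite to Gprc5c. Its lowest, median and highest values were 7.38, 9.19 and 15.5 CPM at baseline and 16.9, 21.02 and 29.7 at t0. No t0 library fell into the baseline range, and the rise was 1.09 ± 0.24 in log2, or 2.12-fold (adjusted p = 0.00068). The rise stayed between 0.98 and 1.24 with any 1 library left out. The comparison called 45.5% of all genes, so a call by itself does not set Gprc5b apart there. At t2 the values were 16.2, 13.5, 7.61, 15.3 and 24.4 CPM in animals 334, 339, 347, 358 and 360, spanning both earlier groups, and the difference from baseline did not pass (0.58 ± 0.25, adjusted p = 0.10). Without t2 347 it was 0.75 and passed, with an adjusted p of 0.031.

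At t4 the lowest value of Gprc5b was 6.35, the median 7.24 and the highest 14.7, with 5 of the 6 libraries at 6.35 to 7.68 and library 336 apart from them. The difference from baseline was -0.31 ± 0.24 (95% interval -0.81 to 0.19, adjusted p = 0.39). At t6 the values were 8.03, 11.6, 9.18, 12.5 and 14.5 CPM, in the baseline range, with a difference of 0.12 ± 0.25 (95% interval -0.40 to 0.63, adjusted p = 0.84). Against t0, Gprc5b was lower, with a difference of -1.40 ± 0.25 at t4 (adjusted p = 6e-05) and of -0.97 ± 0.26 at t6 (0.0038), while t2 did not pass (-0.51 ± 0.26, 0.14), except without t2 360 (-0.73, adjusted p = 0.035). Of all genes, 33.4% were called at t4 against t0 and 38.7% at t6 against t0. Without the 4 libraries rich in haemoglobin or Rn45s, the t6 value of Gprc5b against t0 was -0.75 with an adjusted p of 0.082. The trend was -0.18 ± 0.05 per month (adjusted p = 0.0038), and -0.12 (adjusted p = 0.43) without the t0 libraries.

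The Gprc5b values carry an uncertainty of counting. Its exons share 606 bases with those of Iqck, which runs on the other strand, and how the authors used strand is not given in the sources used here. Its counts were whole within 0.01 in 0 of the 28 libraries, whereas those of Gprc5a were whole in 26 and those of Gprc5c in 10. Within a wider tolerance of 0.05, the sum of Gprc5b, Iqck and Knop1, the next gene of the chain, was whole in 23 of 28 libraries, against 1 for Gprc5b alone, as happens when reads are divided among overlapping genes. Iqck did not follow Gprc5b. Its baseline values were 18.02 to 22.7 CPM (median 21.4), and at t0 they were 4.27 to 5.82 in 5 libraries and 18.9 in t0 359, a fall of -1.46 ± 0.26 (adjusted p = 3.8e-05). Knop1 rose by 0.42 ± 0.13 at t0 (adjusted p = 0.0099). How many of the shared reads belong to each gene was not tested.

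Markers of basal and squamous epithelium were also higher at t0. The 6 basal markers summed to 856 to 2420 CPM at baseline and 4257 to 8571 at t0, and the 6 squamous ones to 81.7 to 302 and 1641 to 4585, with Cnfn at 0 in 5 of the 6 baseline libraries and no other basal or squamous marker at 0 at either time. All 5 macrophage markers tested rose as well, from summed levels of 55.7 to 102 CPM to 194 to 544, as did 4 of 4 T and NK cell and 4 of 4 B and plasma cell markers tested, all 5 neuroendocrine markers and 5 of 6 skeletal muscle markers. Of all genes, 23.3% were called higher at t0. The skeletal muscle sum was 5.46 to 183 CPM at t0, and the neuroendocrine one 30.8 to 103. The muscle gene Tnnc2 was at 0 in 4 baseline libraries, and the B cell gene Ms4a1 in 4 baseline and 2 t0 libraries. Their part in the rise of Gprc5b was not tested.

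**Figure D4:**
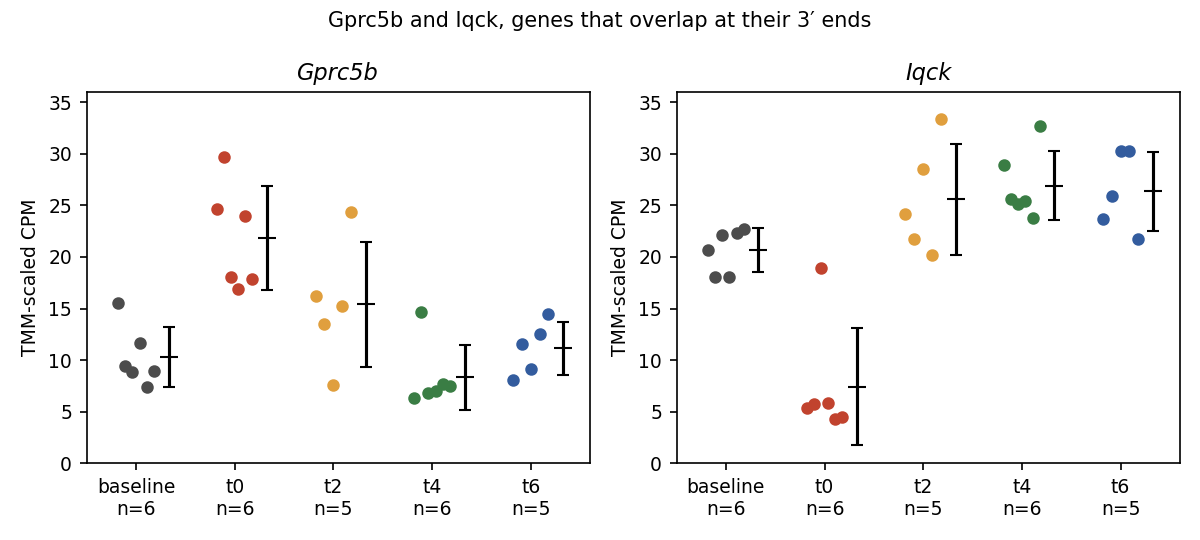
TMM-scaled CPM of Gprc5b and of Iqck in the 28 knockout libraries, by group, with 1 point per mouse and the mean ± SD beside each group, on the same vertical scale. At t0 all 6 Gprc5b points are at 16.9 CPM or above, while 5 of the 6 Iqck points are at 5.82 CPM or below.

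The ratio of Gprc5c to Gprc5b counts within a library needs no scaling between libraries, and against baseline it was lower at t0 and higher at t4. Its divisor is the Gprc5b count, so the uncertainty of counting given for Gprc5b carries over to it. Mean Gprc5b was 10.3, 21.84 and 8.327 CPM at baseline, t0 and t4, and mean Iqck 20.64, 7.424 and 26.93. The part of divided reads in the ratio was not tested. The ratio had a lowest value of 5.90, a median of 9.95 and a highest of 16.9 at baseline, and of 2.14, 2.61 and 5.11 at t0, with no overlap. At t4 the lowest was 16.8, the median 24.7 and the highest 26.3, so only the highest baseline library, 355, reached into the t4 range. In log2 the t0 ratio was -1.82 from baseline (two-sided exact permutation p = 0.0022, the smallest that 6 against 6 libraries can give, 0.0061 adjusted over 7 comparisons). The t4 ratio was 1.20 above baseline (exact p = 0.0043, adjusted 0.0061). At t2 the ratios were 9.62, 9.52, 21.2, 8.70 and 5.15, and at t6 they were 10.4, 9.88, 12.8, 9.99 and 5.27. The t2 library 347 lay within the t4 range, and t4 was not tested against t2 or t6. The t2 and t6 groups lay around the baseline median, with differences of -0.02 and -0.09 (exact permutation p = 0.92 and 0.80, each 0.92 adjusted). Against t0 the ratio was higher by 1.79 at t2, 3.02 at t4 and 1.73 at t6 (adjusted exact p = 0.0061 each).

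**Figure D5:**
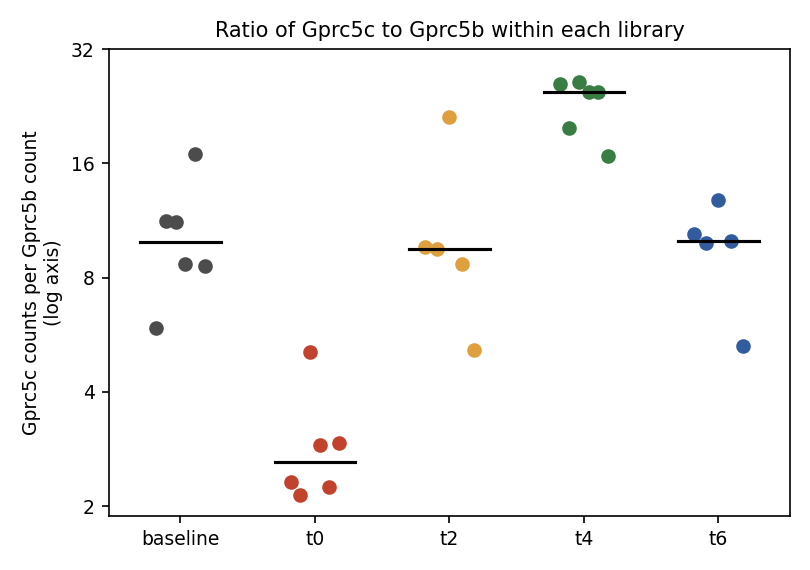
Counts of Gprc5c per count of Gprc5b in each knockout library, on a log axis, by group, with 1 point per mouse and the group median as a line. The t0 points are at 2.14 to 5.11 and the t4 points at 16.8 to 26.3, while baseline, t2 and t6 centre near 10.

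Gprc5d was at the limit of detection everywhere. It had 14 counts over 8 of the 28 knockout libraries, with at most 4 in any library. Baseline and t0 held 4 counts each, t2 held 1, t4 held 0 and t6 held 5. The 6 wild-type libraries held 7 counts, in 3 of them. The count of 0 over the 122.5 M counts of the t4 group allows a level of up to 0.0245 CPM, counting error only. The gene was under the count filter (at least 1 CPM in at least 5 libraries), and no difference between groups was detectable at this depth.

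The nearest genes on either side of the members were given the same fit. Ddx47, an RNA helicase gene before Gprc5a, did not pass at any time against baseline (adjusted p of 0.28 to 0.69). Hebp1, a haem-binding protein gene past Gprc5d, rose at t0 by 1.34 ± 0.49 (adjusted p = 0.026) and was among the genes at 0 in t2 339. Beside Gprc5c, the leukocyte receptor genes Cd300a and Cd300lb rose at t0 by 3.18 ± 0.57 (adjusted p = 5e-05) and 2.46 ± 0.82 (0.016), opposite to Gprc5c, and Btbd17 rose at t4 by 1.56 ± 0.52 (0.033). Gp2, a glycoprotein gene past Gprc5b, rose at t2 by 1.59 ± 0.55 (0.042) and at t6 by 1.87 ± 0.55 (0.034). Apold1, Gpr142, Gpr139 and Gm19434 were under the filter.

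Genes that make or carry retinoic acid, the inducer of Gprc5a, moved in both directions. Of 23 on the list 17 were tested. At t0 7 rose and 2 fell, 9 of 17 in all, in a comparison that called 45.5% of all genes (23.3% higher, 22.3% lower), and the median was 0.20 beside 0.018 for all genes. At t2, t4 and t6 there were 1, 2 and 3 higher calls and 1, 3 and 1 lower ones, where 11.2, 10 and 4.54% of all genes were called higher and 8.73, 9.56 and 4.29% lower. The list had medians of 0.23, 0.08 and 0.18 beside 0.015, 0.007 and -0.007. Aldh1a3, a retinal dehydrogenase, went from 0.146 to 1.499 CPM at baseline to 10.2 to 33.3 at t0 (4.93 ± 0.59, adjusted p = 2.6e-07). It stayed above baseline at t4 (1.72 ± 0.54, 0.026) and t6 (1.89 ± 0.55, 0.030). Aldh1a1, another retinal dehydrogenase and far more abundant, went the other way, from 5917 ± 2403 CPM at baseline to 2090 ± 822 at t0 (-1.50 ± 0.23, adjusted p = 7.4e-06), and was called lower at all 4 times. It was chosen after its values were seen. Adh7, an alcohol dehydrogenase that oxidises retinol, rose from 363 ± 78.3 to 871 ± 145 CPM at t0 (1.26 ± 0.15, adjusted p = 2.8e-07) and was called at no later time against baseline. Dhrs9, a retinol dehydrogenase, was called at all 4 times, from 19.6 ± 16.4 CPM in baseline to 115 ± 50.6 in t0 and 243 ± 62.7 in t2 libraries, then 220 ± 64.9 and 125 ± 48.2 in those of t4 and t6 (SD), with its highest value at t2 (3.64 ± 0.45, adjusted p = 8.3e-06).

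Retinoid receptors and their cofactors had 11 of 12 members tested. At t0 6 rose and 2 fell, with a median of 0.40, where 23.3% of all genes were called higher and 22.3% lower. At t2, t4 and t6, 2, 1 and 2 fell, where 8.73, 9.56 and 4.29% of all genes did, and the others did not pass, with medians of 0.12, -0.11 and -0.13. Rarg, the retinoic acid receptor gamma gene, rose at t0 by 0.79 ± 0.17 (adjusted p = 0.00033), and the coactivator gene Ncoa3 by 0.64 ± 0.13 (0.00017). Rarb, itself a classic retinoic acid target, fell from 14.8 to 33.1 CPM at baseline to 3.53 to 15.3 at t2 (-1.19 ± 0.30, adjusted p = 0.0065) and 5.47 to 11.8 at t4 (-1.21 ± 0.28, 0.0037), and at t6 it lay at 12.2 to 24.5 (-0.18 ± 0.29, 0.78). Ncoa1, another coactivator gene, fell at t0 (-0.57 ± 0.12, 0.00023), t2 (-0.38 ± 0.12, 0.031) and t6 (-0.60 ± 0.12, 0.0024).

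Few other class C receptors were measured, with 5 of 18 past the filter. At t0 1 rose and 1 fell, near the 23.3% and 22.3% of all genes, and 1 rose at t4 and at t6, where 10 and 4.54% of all genes were called higher. The medians over the 5 were -0.22, 0.30, 0.57 and 0.10 at the 4 times. Gabbr1, a subunit of the GABA-B receptor, rose at t0 (0.52 ± 0.17, adjusted p = 0.014), t4 (0.82 ± 0.17, 0.0014) and t6 (0.56 ± 0.18, 0.044). The umami taste receptor subunit Tas1r1 fell at t0, like Gprc5c, from 7.80 ± 2.06 to 3.69 ± 1.39 CPM (-1.08 ± 0.30, adjusted p = 0.004). The glutamate receptor gene Grm4 was 2.73 ± 0.75 higher at t4 than at t0 (adjusted p = 0.0057), and Tas1r3, which pairs with Tas1r1, did not pass at any time against baseline (adjusted p of 0.11 to 0.86).

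Of signalling genes that studies of Gprc5a loss have followed, 10 of 11 were tested. At t0 3 rose and 1 fell, where 23.3% of all genes were called higher and 22.3% lower. At t2 4 rose and at t4 2 rose, where 11.2 and 10% of all genes were called higher, and none was called at t6. The medians over the 10 were 0.19, 0.46, 0.23 and -0.08 from t0 to t6. The NF-κB subunit gene Rela went from 67.8 ± 11.8 to 166 ± 39.3 CPM at t0 (1.29 ± 0.18, adjusted p = 1.9e-06), and was still higher than baseline at t2 (0.60 ± 0.18, 0.023) and t4 (0.60 ± 0.18, 0.019). Nfkb2, another subunit gene, rose at t0 (1.33 ± 0.23, adjusted p = 3e-05) and t4 (0.86 ± 0.23, 0.0082). Nfkb1 and the transcription factor gene Stat3 rose at t2 (0.42 ± 0.12, 0.011 and 0.44 ± 0.13, 0.020).

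The genes whose levels ran closest to each member over the 28 knockout libraries were ranked by Spearman's rho, given here as a description of libraries that share groups, cell make-up and depth. For Gprc5c they were Ncs1 (0.94), Dnajb2 (0.93), Ccdc92 (0.93), Pofut2 (0.92) and Zcchc14 (0.92), and after group means were taken out rho lay between 0.50 for Ccdc92 and 0.77 for Pofut2. For Gprc5b they were Mdfic (0.82), Hilpda (0.82), Ldha (0.81), Gnb1l (0.80) and Aim1 (0.79), of which Ldha kept 0.61 within groups and Hilpda 0.20. For Gprc5a, at about 1 CPM, they were Rnf25 (0.72), Mrfap1 (0.68), Amd1 (0.67), Fdx1 (0.66) and Inhba (0.65). By Pearson's r, 3 of the 5 genes nearest to Gprc5c were the same, and 1 of 5 for each of the other two. Without t2 339, 1 of the 5 genes named for Gprc5a was still among its nearest 5, against 4 of 5 for Gprc5b and for Gprc5c. Between members, Gprc5b and Gprc5c had a rho of -0.55 over all libraries and 0.04 within groups.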

How the data were processed

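Per the labels' protocols, RNA of integrity number 7 or above was made into poly-A libraries and read on an Ion Proton. The knockout table, named for RPKM, holds estimated counts as deposited: 76.3% of its values above 0 were whole within 0.01. Per the submitters' processing notes it was made with mm10, STAR 2.4.1d, Bowtie2 2.1.0 and Partek. The wild-type files hold expected counts, FPKM and TPM, per the file headers, and came from RSEM 1.3.1, STAR 2.7.0f and GRCm38 per the submitters' processing notes.

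Counts were rounded, 14847 genes that reached 1 CPM in 5 or more libraries were tested, and edgeR 4.0.16 (R 4.3.3, quasi-likelihood, TMM, a mean per group over all 28 knockout libraries, two-sided, Benjamini-Hochberg over all genes, 0.05) gave each p unless another test is named. The trend used the 22 exposed libraries. Fits were tested on simulated data. Knockout levels per length are CPM by library totals divided by the mean length in the wild-type files. Ratios had 0.5 added to each count. Samples were grouped by label, and animal numbers, unique to a mouse, pair nothing. DESeq2 1.42.0 and limma 3.58.1 (pseudocounts 1 and 0.1 CPM, and voom) were alternatives, beside other filters, scalings, sex as a covariate and libraries left out. Python 3.11.15, scipy 1.17.1, numpy 2.4.6 and pandas 2.3.3 were used for ratios and tables.

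Named genes were the members, the 2 nearest genes on each side, the 5 genes most like each member and the 4 genes of each list with the smallest F test p. Of these, 1 gene is not reported here. Members and lists were chosen with earlier results of these data known.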

Additional observations from a re-analysis of the deposited data

Results flagged for a closer look

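Of 23 groups of member values and ratios examined for a library far from the rest, 6 held one. The cut-offs used are meant for independent, normally spread values. Levels and ratios were used without logs, and the ratios reuse the member counts, so no rate expected by chance is given. The flagged libraries are a description only. For Gprc5a these were t2 339 at 7.71 CPM and t4 336 at 3.11 CPM. For Gprc5b it was t4 336 at 14.7 CPM, and for Gprc5c t0 359 at 92.3 CPM. The ratio of Gprc5c to Gprc5b was high in t0 359, at 5.11, and in t2 347, at 21.2. Libraries t4 336 and t0 359 each stood out in more than 1 value.

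The change from baseline differed between t0 and a later time for all 3 members tested, by direct contrasts of the times, which is the same as testing the difference of the changes. For Gprc5c the differences in log2 were 1.20 (t2), 1.61 (t4) and 0.75 (t6). For Gprc5b they were -1.40 at t4 and -0.97 at t6. For Gprc5a the difference was 2.099 at t2, a value that t2 339 sets. For the ratio they were 1.79, 3.02 and 1.73 at t2, t4 and t6.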

How the results depend on the processing

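Apart from leaving out each library of the groups compared in turn, 535 values were recomputed under alternatives, the removal of t2 339 from every fit included. Of these, 501 were counted as unchanged. For tests this meant the same side of the threshold and, where there was one, the same direction. Numbers of genes called had to stay within a set fold of the main value. Wild-type levels had to stay within the SD, and correlations had to keep their sign. The calls of Gprc5c at t0 and t4 against baseline, of Gprc5b at t0, and of Gprc5c at t2, t4 and t6 against t0 held under all alternatives run, leaving out 1 library included. None of the alternatives changed how reads were divided among Gprc5b, Iqck and Knop1. No paired analysis was possible because no number is shared between groups.

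Gprc5c at t2 against baseline passed under DESeq2 size factors (0.497), library totals (0.605), DESeq2 (0.497), limma with pseudocounts 1 and 0.1 (0.498, 0.502), voom (0.503) and with only the groups compared (0.501). Gprc5a changed sign at t2 against baseline under voom (-0.054) and without t2 339 (-0.14), and at t4 under limma (-0.025, -0.15) and voom (-0.24). At t2 against t0 it lost its call under limma (0.80, 1.40), voom (0.92) and without t2 339 (0.87). Its test over the 5 groups passed under DESeq2 (likelihood ratio test, adjusted p = 0.037). Without the haemoglobin- and Rn45s-rich libraries, Gprc5c at t6 against baseline was -0.037, and at t6 against t0 Gprc5a was -0.19 and Gprc5b -0.75, no longer called. The trend of Gprc5a was -0.023 by totals, -0.048 without the rich libraries and -0.36 without t0. That of Gprc5b was -0.12 without t0. That of Gprc5c lost its call with no filter (0.17), by totals (0.14), without the rich libraries (0.20) and without t0 (-0.11). The trend called 4814 genes, and 362 without t0. Calls at t4 against baseline were 2907, and 5379 under voom. Those at t6 were 1311, and 833 by totals, 3783 under voom, 504 without the rich libraries and 2052 without t2 339. The cause was not tested. By totals, the share of calls that were higher was 69.4, 80.3, 71.2 and 72.0% at t0, t2, t4 and t6 against baseline (51.1, 56.1, 51.2 and 51.4% with TMM), 36.8 and 35.5% at t4 and t6 against t0 (47.7 and 47.0%) and 30.6% for the trend (50.4%), with the median gene shifted to 0.194 at t0. Without t0 the trend's share was 32.04%, and without the rich libraries that at t6 against baseline was 71.8%.

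With 1 library left out, ranges were -0.14 to 1.34 for Gprc5a at t2 against baseline, 0.35 to 0.75 for Gprc5b, 0.43 to 0.57 for Gprc5c, -0.45 to 0.31 for Gprc5a at t4 and -0.028 to 0.14 for Gprc5c at t6. At t2 against t0 they were 0.87 to 2.39 for Gprc5a and -0.73 to -0.33 for Gprc5b. The adjusted p of the F test of Gprc5a ranged from 0.029 to 0.30, the trends from -0.037 to 0.12 (Gprc5a) and 0.14 to 0.20 (Gprc5c), and the ratio from -0.31 to 0.20 at t2 and -0.24 to 0.12 at t6 against baseline. At t6 against t4 they were -0.77 to 0.081 for Gprc5a and -0.95 to -0.69 for Gprc5c. At 3 CPM in 5 libraries Gprc5a drops out. Counts of 4 to 49 in most knockout libraries limit what can be said of it.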
